A study of Mus musculus with 14 samples.

Results

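The peptidylarginine deiminase family was followed through 4 of its genes, Padi1, Padi2, Padi3 and Padi4, taken by symbol from the 24411 genes of each count table. All 4 symbols were present, once each. The family was read in 14 RNA sequencing libraries of MC-38, a mouse colon cancer cell line, in 6 groups. In culture there were 3 control libraries and 3 libraries of cells given NETs (neutrophil extracellular traps, the chromatin webs that neutrophils release). The other 8 libraries came from lung tumours, from which MC-38 cells expressing GFP were flow sorted on day 30, with 2 libraries in each group. Hosts were WT or PAD4 KO, and each genotype was studied without surgery (control) or after laparotomy, an opening of the abdomen, on days 0 and 10. The genotype label of the cells is WT in all 14 libraries, so the knockout lies in the host and the tumour cells keep Padi4. The level of Padi4 in sorted cells therefore does not check the host genotype. Whether libraries of a group are separate cultures or animals is not given in the sources used here, and neither are the age, sex or strain of the mice. The p-values thus reflect only how far these samples scatter, and part of that scatter may be technical.

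Peptidylarginine deiminases are calcium-dependent enzymes that turn arginine within proteins into citrulline and so remove a positive charge. PAD4, the product of Padi4, has a nuclear localization signal and citrullinates histones, a step in the release of NETs by neutrophils. PAD2, the product of Padi2, is the most widely expressed member, while PAD1 and PAD3 are best known from epidermis and hair follicles, where they act on filaggrin and trichohyalin.

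The 4 genes lie in 1 cluster on mouse chromosome 4 (GRCm38). Padi4 spans chr4:140745865-140774236, Padi3 chr4:140785365-140810648 and Padi1 chr4:140812983-140845778, all on the minus strand. Padi2 lies beyond Padi1 on the plus strand, at chr4:140906344-140952586. Padi6, the oocyte member, adjoins Padi4 on the other side at chr4:140727355-140742643. On the annotation, exons of Padi1 share 1200 bases with Gm13032, a transcript on the opposite strand, and exons of Padi2 share 149 bases with the antisense gene Gm13031. The library kit is not given in the sources used here, so unstranded counts are shown with the strand columns beside them.

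The bases just upstream of Padi2, Padi3 and Padi4 are shown because the levels of these 3 genes differ most between the groups. Each line gives 250 bases before the RefSeq gene start (GRCm38.p6), 5′ to 3′ on the strand of the gene, and ends at the base before the start. Capitals mark exact matches, on either strand, to 4 motifs chosen after the sequences had been read: TATAAA, the GC box GGGCGG, the CCAAT box CCAAT and the AP-1 site TGACTCA. The windows are chr4:140906110-140906359 (plus strand) for Padi2, chr4:140810649-140810898 (minus strand) for Padi3 and chr4:140774204-140774453 (minus strand) for Padi4. The gene spans given above are from GENCODE, whose starts differ from RefSeq, so the Padi2 and Padi4 windows reach into those spans.
Padi2: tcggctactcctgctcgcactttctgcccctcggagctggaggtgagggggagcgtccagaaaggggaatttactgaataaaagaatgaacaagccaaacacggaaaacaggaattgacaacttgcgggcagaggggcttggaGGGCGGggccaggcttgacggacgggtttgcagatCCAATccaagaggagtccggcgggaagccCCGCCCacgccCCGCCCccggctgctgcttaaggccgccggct
Padi3: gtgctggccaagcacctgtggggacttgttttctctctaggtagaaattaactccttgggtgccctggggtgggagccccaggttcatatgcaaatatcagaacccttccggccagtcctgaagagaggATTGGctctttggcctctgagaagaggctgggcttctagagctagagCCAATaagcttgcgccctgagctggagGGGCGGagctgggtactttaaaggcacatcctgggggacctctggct
Padi4: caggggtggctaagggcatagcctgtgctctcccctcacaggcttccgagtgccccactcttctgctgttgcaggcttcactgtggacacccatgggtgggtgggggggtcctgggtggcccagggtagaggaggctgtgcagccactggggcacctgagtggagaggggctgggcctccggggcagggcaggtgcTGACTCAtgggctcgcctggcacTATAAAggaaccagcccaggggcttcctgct

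The Padi2 window held 17 CpG dinucleotides and 61.6% G and C, with 3 GC boxes and 1 CCAAT box and none of the other motifs. The Padi4 window held 3 CpG and 66.0% G and C, with 1 TATAAA that lay 31 to 26 bases before the start and 1 AP-1 site 54 to 48 bases before it. The Padi3 window held 3 CpG and 56.0% G and C, with 1 GC box and 2 CCAAT boxes. In the Padi1 window (chr4:140845779-140846028, minus strand) there was no CpG and no match to the 4 motifs, at 60.0% G and C. Among 32851 windows of the same length, the median was 6 CpG and 52.4% G and C. In those windows TATAAA was found in 12.4%, the GC box in 32.7%, the CCAAT box in 33.8% and the AP-1 site in 4.5%. A match describes these letters and shows no binding.

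Total gene counts ran from 6.39 to 31.3 M per library, and 1.09 to 1.20% of strand-specific counts fell in the first-strand column. WT control replicate 2 stood apart from its group. It held 636 CPM (counts scaled to the gene total of the library) summed over 10 neutrophil markers. Replicate 1 held 56.5 CPM and the other tumour libraries 7.14 to 103 CPM. In WT control replicate 2 the summed lung epithelium markers (783 CPM over 8 genes) and leukocyte markers (791 CPM over 8 genes) were also the highest of the 14. The PAD4 KO controls were split too. Replicate 2 held 411 CPM of lung epithelium and 103 CPM of neutrophil markers, against 40.2 and 12.8 CPM in replicate 1. Fold changes of members that rest on WT control replicate 2 are also given without that library. The colon and general epithelial markers of the labelled line were at or near 0 in culture, where the 9 genes summed to 0.972 to 1.82 CPM. Cdx2, a colon transcription factor, had no count in 13 of 14 libraries, and Epcam, an epithelial adhesion molecule, reached at most 1.93 CPM.

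Padi4 was the leading family member in culture, as the plot of CPM by library shows. Levels below are CPM of the unstranded counts over the gene total of the library, given as mean ± SD, while fold changes come from edgeR fits with TMM (trimmed mean of M values) scaling. Padi4 was at 68.5, 75.0 and 69.0 CPM in the control cultures (70.8 ± 3.63, SD, n = 3) and at 62.7, 59.8 and 62.8 CPM with NETs (61.8 ± 1.71, SD, n = 3). In tumour cells it was at 3.23 and 7.69 CPM in WT controls, 30.8 and 30.8 CPM after laparotomy in WT hosts, 5.33 and 2.10 CPM in PAD4 KO controls and 3.92 and 2.74 CPM after laparotomy in PAD4 KO hosts. All 8 tumour libraries lay below all 6 cultures, and the 2 libraries from WT hosts with laparotomy lay above the other 6 tumour libraries. The share of all genes set apart in either way was not counted. In the tests below, 60.7 to 67.3% of all genes differed between a tumour group and control cultures. Libraries of WT hosts with laparotomy lay above WT controls alone in 28.1% of tested genes. First-strand counts of Padi4 were 0 to 4 per library, against 35 to 1295 on the other strand.

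Padi2 had another order. It was at 2.05, 1.80 and 1.38 CPM in control cultures (1.74 ± 0.339, SD, n = 3) and at 10.1, 8.14 and 10.2 CPM with NETs (9.48 ± 1.17, SD, n = 3). In tumour cells it was at 1.48 and 9.15 CPM in WT controls, 17.8 and 15.5 CPM after laparotomy in WT hosts, 2.11 and 2.18 CPM in PAD4 KO controls and 1.33 and 1.89 CPM after laparotomy in PAD4 KO hosts. The highest levels were those of WT hosts with laparotomy, followed by the NET cultures and, within their range, WT control replicate 2. The other 8 libraries, in culture or in tumours, lay between 1.33 and 2.18 CPM. Padi2 reads fell on the gene's own strand, with 0 to 6 first-strand counts per library.

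Padi3 was near the counting floor in culture, at 0.455, 0.408 and 0.729 CPM in controls and 0.703, 0.783 and 0.388 CPM with NETs, which is 4 to 9 counts per library. It was at 0.277 and 0.780 CPM in WT control tumours, 6.25 and 5.79 CPM after laparotomy in WT hosts, 1.52 and 1.30 CPM in PAD4 KO controls and 0.598 and 0.979 CPM after laparotomy in PAD4 KO hosts. Only the 2 libraries from WT hosts with laparotomy, with 143 and 181 counts, stood above 2 CPM. PAD4 KO controls came next, with 41 and 34 counts.

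Padi1 was the lowest member. Control cultures held 1, 2 and 5 counts (0.114, 0.163 and 0.405 CPM) and NET cultures 5, 8 and 13 counts (0.586, 1.25 and 0.631 CPM). In tumour cells the 2 libraries from WT hosts with laparotomy held 4 and 3 counts (0.175 and 0.0960 CPM), and the other 6 held none. For unstranded counts, the floor of 3 counts over both libraries of a group is 0.0744 CPM in WT controls. It is 0.0564 CPM in PAD4 KO controls and 0.0988 CPM in PAD4 KO hosts with laparotomy. In the second-strand column, which reads of Gm13032 on the other strand do not enter, Padi1 had 11 counts in each of the 2 libraries from WT hosts with laparotomy and 2 and 5 counts in PAD4 KO controls. There the cultures held 2, 8 and 5 counts in controls and 6, 10 and 21 with NETs. In PAD4 KO controls the mean in that column was 0.132 CPM, above the unstranded floor, so that floor is no upper limit on Padi1. Padi6 had at most 6 counts in any library. Intervals and floors cover counting error only.

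**Figure D1:**
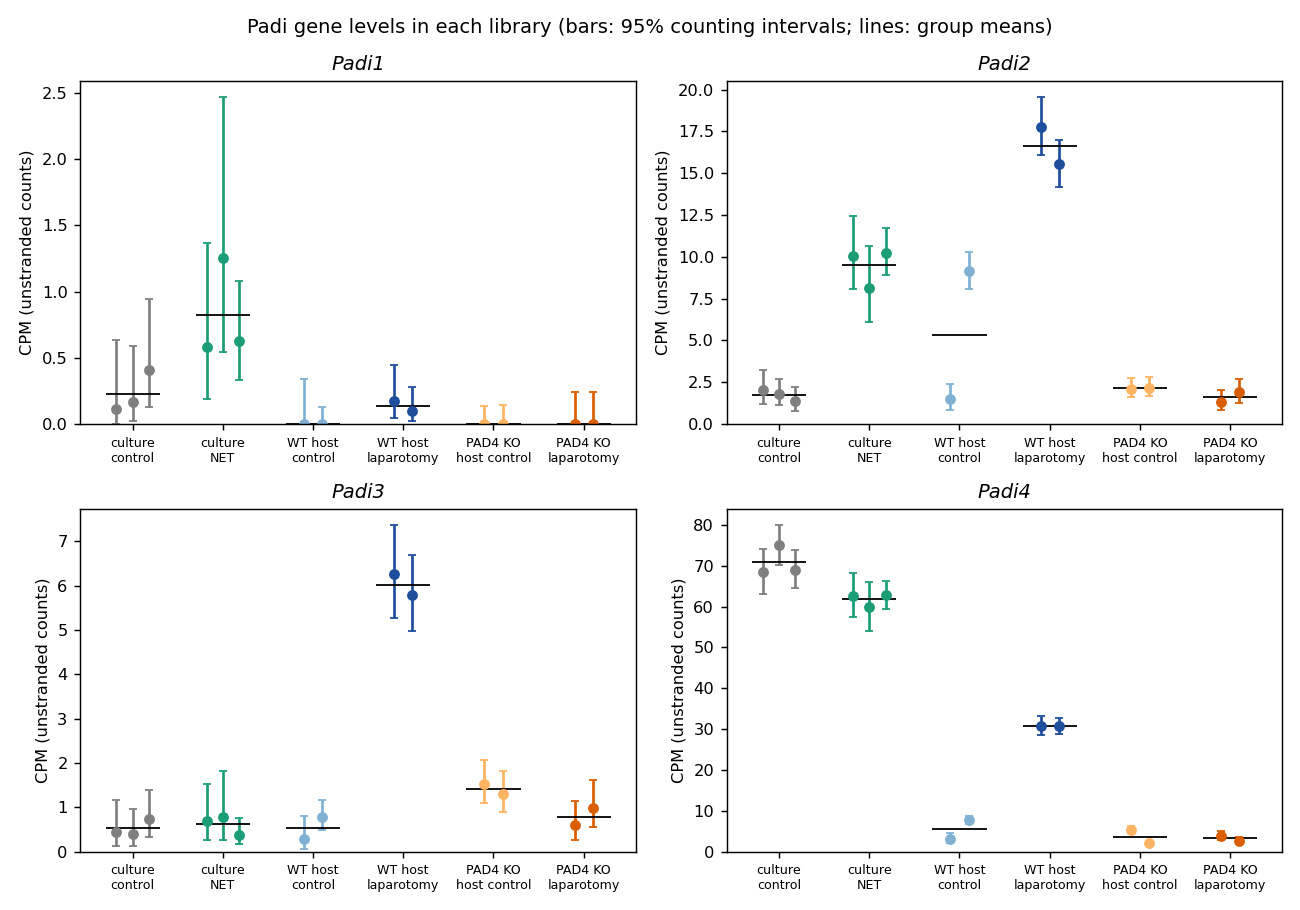
Level of Padi1, Padi2, Padi3 and Padi4 (CPM, linear axes that differ between panels) in each of 14 libraries. Points are libraries, bars their exact 95% Poisson counting intervals and black lines group means; Padi4 is highest in cultures (59.8 to 75.0 CPM), while Padi2 and Padi3 are highest in tumour cells of WT hosts with laparotomy (15.5 to 17.8 and 5.79 to 6.25 CPM).

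Per kilobase of exon, the levels can be set beside each other within a group. In control cultures Padi4 stood at 14.7 CPM per kilobase, Padi2 at 0.347, Padi3 at 0.154 and Padi1 at 0.0606. With NETs Padi4 was at 12.8, Padi2 at 1.89, Padi1 at 0.219 and Padi3 at 0.181 CPM per kilobase. In tumour cells of WT hosts with laparotomy the order was Padi4 at 6.37, Padi2 at 3.32, Padi3 at 1.75 and Padi1 at 0.0361 CPM per kilobase. In WT controls Padi4 (1.13) and Padi2 (1.06 CPM per kilobase) were close on average, and the order of these genes differed between the 2 libraries: Padi4 was higher in replicate 1 (0.668 against 0.294) and Padi2 in replicate 2 (1.83 against 1.59). In PAD4 KO controls Padi4 (0.768), Padi2 (0.427) and Padi3 (0.408 CPM per kilobase) came closest, and in replicate 2 Padi4 and Padi2 were both at 0.434.

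The makeup of the family counts differed between culture and tumour cells. The 4 genes together summed to 70.0 to 77.4 CPM in the 6 cultures, whether or not NETs were given. They summed to 55.0 and 52.2 CPM in tumour cells of WT hosts with laparotomy and to 4.98 to 17.6 CPM in the other 6 tumour libraries. As a share of Padi2 and Padi4 counts, Padi2 made up 2.90, 2.34 and 1.96% in control cultures and 13.8, 12.0 and 14.01% with NETs. The difference of 10.9 percentage points between the means (13.3 ± 1.13% against 2.40 ± 0.476%, SD, n = 3 each) had p = 0.1 in a two-sided exact permutation test, the smallest p that 3 against 3 libraries can give. In the tumour libraries the share was 31.4 and 54.3% in WT controls, 36.5 and 33.5% after laparotomy in WT hosts, 28.4 and 50.9% in PAD4 KO controls and 25.3 and 40.9% after laparotomy in PAD4 KO hosts. Every tumour library was above every culture, and the 4 tumour groups overlapped.

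**Figure D2:**
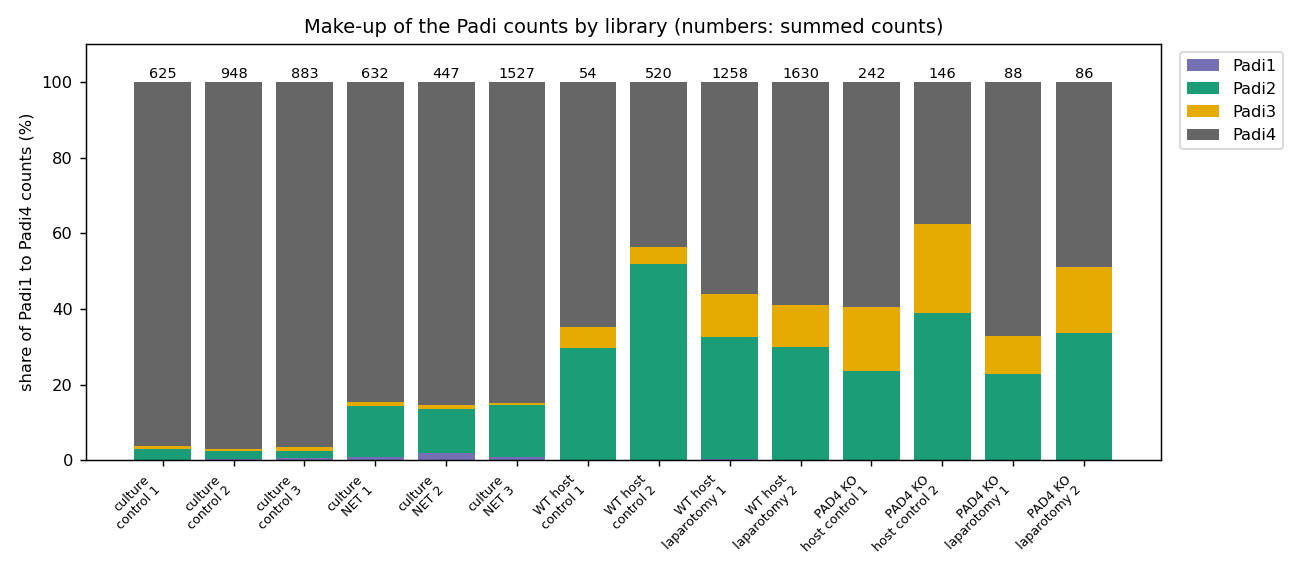
Share of Padi1, Padi2, Padi3 and Padi4 in their summed counts (%, stacked bars from 0) for each of 14 libraries, with the summed counts above each bar. Padi4 takes nearly all counts in control cultures, while Padi2 and Padi3 take a visible part in each tumour library, on sums as low as 54 counts in WT control replicate 1.

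In culture Padi2 rose with NETs, while Padi4 did not pass the test. Padi2 rose 6.26-fold (log2 fold change 2.65 ± 0.19, SE, adjusted p = 2.26e-08, edgeR quasi-likelihood test with Benjamini-Hochberg adjustment over 11753 genes), and its groups did not overlap, as in 16.9% of tested genes in the direction of higher CPM with NETs. The log2 value for Padi4 was -0.04 ± 0.07 (SE, with 0.669 as adjusted p in edgeR), although its CPM groups did not overlap, as in 44.3% of tested genes in the direction of lower CPM. With library totals in place of TMM factors, Padi4 fell by 0.20 on the log2 scale (adjusted p = 0.031 by edgeR), where the median of all genes was -0.16. Of the 2 members that passed the filter on low counts 1 passed the test, against 54.1% of all genes (54.6% with library totals, where both passed). Padi1 and Padi3 were removed by that filter. In a fit with no filter, where 36.7% of genes passed, Padi1 was higher with NETs by 1.73 ± 0.60 (log2, SE, adjusted p = 0.0128 by edgeR) on 26 against 8 counts, and Padi3 had 0.16 ± 0.54 (adjusted p = 0.85).

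Myeloid transcripts moved in the same cultures. Leukocyte markers summed to 1.48 to 2.04 CPM in controls and 10.7 to 11.7 CPM with NETs, and 5 of the 5 tested rose. Monocyte and macrophage markers summed to 85.9 to 104 and 139 to 157 CPM, and 4 of 4 tested rose. Neutrophil markers summed to 60.9 to 69.0 CPM in controls, nearly all of it Lcn2, and to 29.2 to 34.0 CPM with NETs, and of 2 tested 1 rose and 1 fell. In each control culture 2 to 5 of the 8 leukocyte markers and 7 to 10 of the 12 monocyte and macrophage markers had no count. Markers with so few counts in controls passed the filter on low counts only through the NET cultures, so they could only rise. Beside the counts of tested markers stand 3093 of 11753 genes that rose and 3270 that fell, 54.1% of all. Whether RNA carried by the NET preparation adds to the Padi2 reads was not tested.

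After laparotomy in WT hosts, Padi2, Padi3 and Padi4 were all higher than in WT control tumours, with no overlap of libraries, and none passed the edgeR test of the 8 tumour libraries. The groups lay apart in that direction in 28.1% of all tested genes. Their log2 fold changes were 3.43 ± 0.63 for Padi3 (SE, adjusted p = 0.0969), 2.48 ± 0.53 for Padi4 (adjusted p = 0.134) and 1.63 ± 0.67 for Padi2 (adjusted p = 0.244). Among all genes 0.0547% passed, and all 3 members had an unadjusted p under 0.05, as did 2753 of 14615 genes. Padi3 (adjusted p = 1.91e-04) and Padi4 (adjusted p = 1.51e-04) passed in DESeq2, which called 8.14% of genes. They also passed in an edgeR fit of all 14 libraries (adjusted p = 5.58e-03 and 3.75e-03), which called 10.1%. With no filter on low counts, Padi3 alone passed in edgeR (adjusted p = 0.0347), where 0.861% of genes did. In DESeq2, Padi2 had an adjusted p of 0.115.

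The value for Padi2 rested on which WT control library was kept. Without replicate 2 its log2 fold change was 3.49 ± 0.51 (SE, adjusted p = 0.0588 by edgeR) and without replicate 1 it was 0.89 ± 0.40 (adjusted p = 0.275). Padi3 ran from 2.97 to 4.42 and Padi4 from 2.03 to 3.25 when each library of the 2 groups was left out in turn, and neither passed. The highest of these were without WT control replicate 2 (adjusted p = 0.105 for Padi3 and 0.102 for Padi4 by edgeR).

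In PAD4 KO hosts no rise with laparotomy was seen. The log2 fold changes were -0.39 ± 0.71 for Padi2 (SE, adjusted p = 0.84 by edgeR), -0.81 ± 0.60 for Padi3 (adjusted p = 0.565) and -0.15 ± 0.52 for Padi4 (adjusted p = 0.924). None of the 3 passed in edgeR, even at an unadjusted p under 0.05, nor in DESeq2, while 0.520% of all genes passed in edgeR. Of 14615 genes, 2293 had an unadjusted p under 0.05 in edgeR, and DESeq2 called 443 higher and 340 lower. Padi2 and Padi3 were lower in both libraries with laparotomy than in both controls, as were 22.7% of all tested genes, and the Padi4 libraries overlapped.

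The laparotomy effect in PAD4 KO hosts minus that in WT hosts was tested as an interaction. It was -4.24 ± 0.87 for Padi3 (log2, SE, adjusted p = 0.0718 by edgeR), -2.63 ± 0.73 for Padi4 (adjusted p = 0.125) and -2.02 ± 0.97 for Padi2 (adjusted p = 0.3). None passed, against 0.677% of all genes, and 2 of 3 had an unadjusted p under 0.05, as did 2803 of 14615 genes. In DESeq2 Padi3 (adjusted p = 0.00144) and Padi4 (adjusted p = 0.01) passed with 7.72% of genes, and in the edgeR fit of all 14 libraries both passed (adjusted p = 0.00581 and 0.0123) with 11.1% of genes. With no filter Padi3 passed (adjusted p = 0.0316 by edgeR) with 2.07% of genes. Without WT control replicate 2, Padi2 stood at -3.88 ± 0.61, Padi3 at -5.23 ± 0.98 and Padi4 at -3.40 ± 0.73. These were the largest values when each of the 8 tumour libraries was left out in turn. Padi2 then ran from -3.88 to -1.29, Padi3 from -5.23 to -3.79 and Padi4 from -3.40 to -1.77.

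Between hosts without surgery, no member passed in edgeR (0.116% of all genes did) or in DESeq2, and none had an unadjusted p under 0.05. Most other genes did not reach these marks either. Before adjustment, edgeR put 2388 of 14615 genes below 0.05, while DESeq2 called 457 as lower in PAD4 KO controls and 311 as higher. The lack of a call therefore does not set the members apart from other genes. The log2 fold changes of PAD4 KO against WT controls were -1.30 ± 0.68 for Padi2 (SE, adjusted p = 0.388), 1.36 ± 0.61 for Padi3 (adjusted p = 0.316) and -0.53 ± 0.51 for Padi4 (adjusted p = 0.648). Padi3 was the member with both PAD4 KO controls above both WT controls, as were 19.4% of all tested genes. Its value was 0.91 ± 0.66 without WT control replicate 1 (adjusted p = 0.537 by edgeR) and 2.35 ± 0.82 without replicate 2 (adjusted p = 0.346). Padi2 changed sign with the WT control libraries: it was -2.03 ± 0.38 without replicate 1 and 0.56 ± 0.47 without replicate 2. Padi4 was 0.24 ± 0.56 without WT control replicate 2 (adjusted p = 0.925) and -0.98 ± 0.49 without replicate 1 (adjusted p = 0.372).

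After laparotomy, all 3 members were lower in tumour cells of PAD4 KO than of WT hosts, with no overlap, as were 30.8% of all tested genes. The log2 fold changes were -3.32 ± 0.74 for Padi2 (SE, adjusted p = 0.144 by edgeR), -2.88 ± 0.62 for Padi3 (adjusted p = 0.143) and -3.16 ± 0.55 for Padi4 (adjusted p = 0.101). None passed in this fit, where 0.0205% of genes did, and all 3 had an unadjusted p under 0.05, as did 1954 of 14615 genes. All 3 passed in DESeq2 (adjusted p = 2.14e-04, 0.00306 and 6.96e-07 for Padi2, Padi3 and Padi4), which called 3.73% of genes. All 3 also passed in the edgeR fit of all 14 libraries (adjusted p = 0.00723, 0.0121 and 0.00171), which called 4.94%, and in a fit of these 2 groups alone (adjusted p = 0.0227, 0.0363 and 0.0227), which called 1.64%. With no filter Padi4 passed in edgeR (adjusted p = 0.0385), with 0.788% of genes. These comparisons share tumour groups with those of the laparotomy effect, so they are not independent of them.

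**Figure D3:**
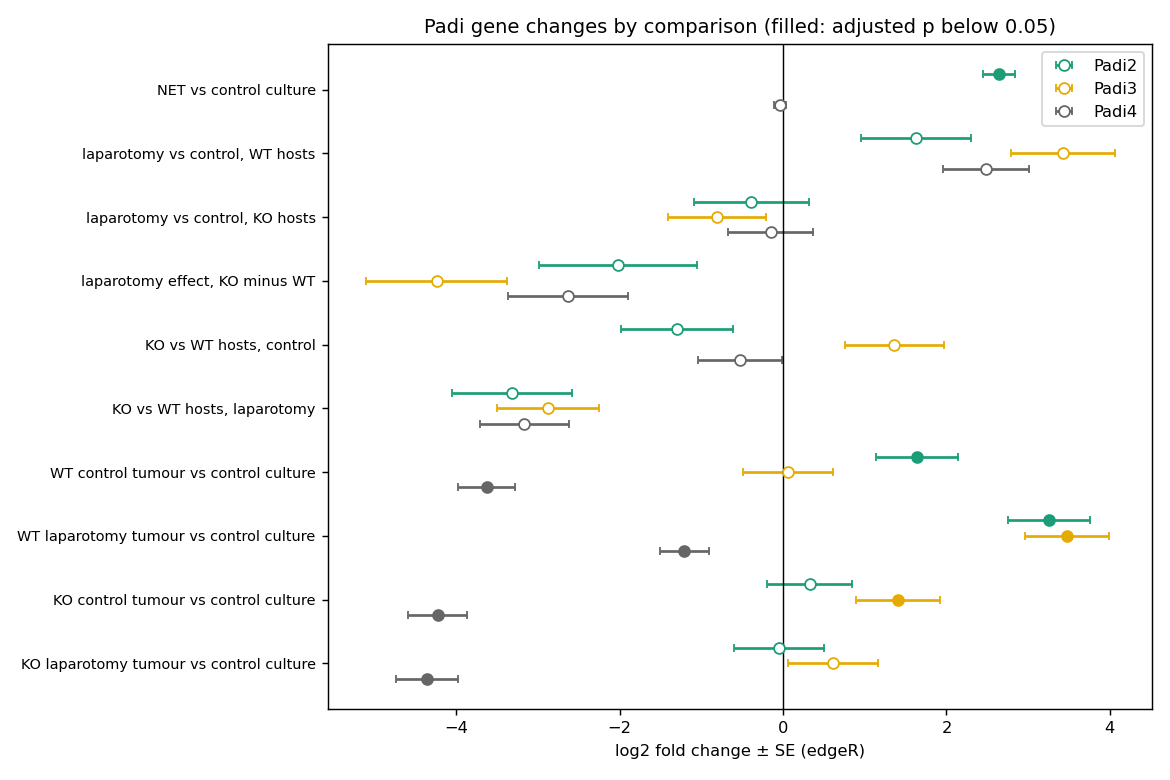
Log2 fold change ± SE of Padi2, Padi3 and Padi4 in each comparison, from edgeR; filled points have an adjusted p below 0.05 and Padi1 and Padi3 are not drawn where the filter removed them. Padi2 stands at 2.65 with NETs, and the 3 genes stand at 1.63 to 3.43 after laparotomy in WT hosts, against -0.81 to -0.15 in PAD4 KO hosts.

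Markers of other cells were read in the same tumour libraries, and the plot of summed markers sets them against the family. WT hosts with laparotomy had the lowest neutrophil marker sums (9.05 and 7.14 CPM, with 2 and 3 of the 10 markers at 0). Their monocyte and macrophage sums were 115 and 102 CPM over 12 genes. The other 6 had 115 to 1664 CPM, and control cultures 85.9 to 104 CPM. The sums of WT hosts with laparotomy were near those of control cultures, where 7 to 10 of the 12 genes had no count. In both libraries from WT hosts with laparotomy each of the 12 genes had counts, so similar sums do not mean the same genes. Leukocyte sums of WT hosts with laparotomy were 78.6 and 56.6 CPM, against 74.1 to 791 CPM in the other 6. Lung epithelium markers summed to 15.1 and 24.7 CPM in them and to 40.2 to 783 CPM in the other 6. Keratinocyte and hair follicle markers, from the tissues where Padi1 and Padi3 are best known, summed to 17.3 and 17.1 CPM there and to 10.1 to 40.9 CPM in the other 6. WT control replicate 2, with the highest myeloid sums, had 9.15 CPM of Padi2 against 1.48 CPM in replicate 1. The part of host cells in that difference was not tested. In bulk RNA, fewer cells of a type and less RNA per cell cannot be told apart.

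**Figure D4:**
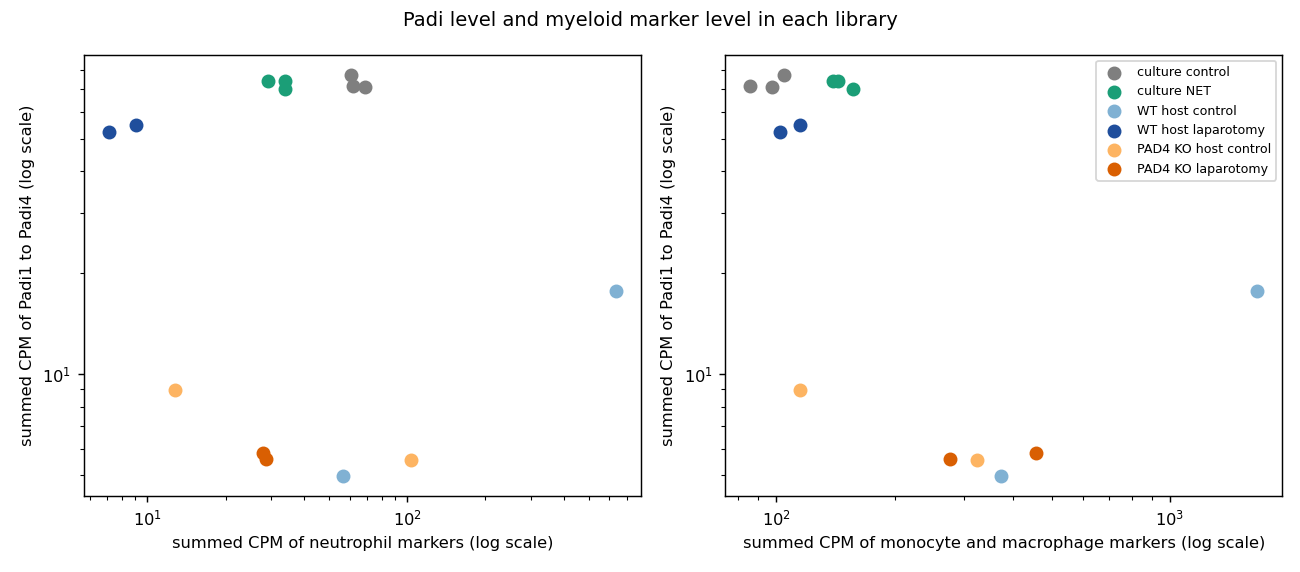
Summed CPM of Padi1 to Padi4 (vertical, log scale) against summed CPM of 10 neutrophil markers (left) or 12 monocyte and macrophage markers (right, both log scale) in each of 14 libraries. Tumour cells of WT hosts with laparotomy have family sums of 52.2 and 55.0 CPM at neutrophil sums of 7.14 and 9.05 CPM, and WT control replicate 2 has 17.6 CPM at 636 CPM.

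Against control cultures, Padi4 was lower in tumour cells of all 4 groups and Padi2 and Padi3 were higher in some. These 4 comparisons share the 3 control cultures and are given side by side, and tumour growth, GFP, cell sorting and any difference in preparation cannot be told apart in them. Padi4 fell by 3.62 ± 0.35 (log2, SE) in WT controls (adjusted p = 2.33e-06 by edgeR), fell by 1.21 ± 0.30 in WT hosts with laparotomy (adjusted p = 0.0039), fell by 4.23 ± 0.36 in PAD4 KO controls (adjusted p = 7.6e-07) and fell by 4.36 ± 0.38 in PAD4 KO hosts with laparotomy (adjusted p = 9.35e-07). Padi2 rose by 3.26 ± 0.50 in WT hosts with laparotomy (adjusted p = 8.41e-05 by edgeR) and by 1.64 ± 0.50 in WT controls (adjusted p = 0.0109). The WT control value of Padi2 was -0.22 ± 0.40 without replicate 2 (adjusted p = 0.679 by edgeR), where Padi4 was at -4.45 ± 0.42 (adjusted p = 1.57e-06) and Padi3 at -0.93 ± 0.80 (adjusted p = 0.339). Padi2 stood at 0.33 ± 0.52 in PAD4 KO controls (adjusted p = 0.592) and at -0.04 ± 0.55 in PAD4 KO hosts with laparotomy (adjusted p = 0.947). Padi3 rose by 3.48 ± 0.51 in WT hosts with laparotomy (adjusted p = 5.32e-05 by edgeR) and by 1.41 ± 0.52 in PAD4 KO controls (adjusted p = 0.0275). The second of these did not pass without control culture replicate 1 (adjusted p = 0.0742) or 2 (adjusted p = 0.0888), or without PAD4 KO control replicate 1 (adjusted p = 0.087). Padi3 stood at 0.06 ± 0.55 in WT controls (adjusted p = 0.927) and 0.61 ± 0.55 in PAD4 KO hosts with laparotomy (adjusted p = 0.339).

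Of the 3 tested members, 2 passed in WT controls (67.3% of all genes did), 3 in WT hosts with laparotomy (60.7%), 2 in PAD4 KO controls (66.1%) and 1 in PAD4 KO hosts with laparotomy (65.0%). Padi1 was removed by the filter on unstranded counts. In the second-strand column it was tested, and it was lower than in control cultures in WT controls (adjusted p = 0.00352 by edgeR) and in PAD4 KO hosts with laparotomy (adjusted p = 0.00585), both with no count in tumour cells, where 68.1% and 66.1% of all genes passed. In that column it had -0.08 ± 0.77 (log2, SE, adjusted p = 0.934) in WT hosts with laparotomy and -1.66 ± 0.87 (adjusted p = 0.11) in PAD4 KO controls. On unstranded counts with no filter, Padi1 passed as lower in WT controls (adjusted p = 0.0354 by edgeR) and PAD4 KO controls (adjusted p = 0.0233) and not in PAD4 KO hosts with laparotomy (adjusted p = 0.053), with no count in any of these 6 libraries. In these fits 48.3% of all genes passed in WT controls and 46.7% in PAD4 KO controls.

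The genes that flank the cluster were read beside it. Of the 6 nearest genes (Igsf21, Arhgef10l and Rcc2 on the Padi6 side, Sdhb, Atp13a2 and Mfap2 on the Padi2 side), 4 were tested with NETs and 1 passed, against 54.1% of all genes. This was Arhgef10l at -0.54 ± 0.10 (log2, SE, adjusted p = 2.61e-04 by edgeR). Rcc2, a regulator of chromosome condensation and the nearest gene beyond Padi6, had 0.02 ± 0.06 (adjusted p = 0.835), and -0.14 with library totals. In WT hosts with laparotomy, Rcc2 had 0.49 ± 0.20 (adjusted p = 0.246) and Arhgef10l -1.01 ± 0.65 (adjusted p = 0.452). Mfap2, a microfibril-associated protein gene, had -3.83 ± 0.97 (adjusted p = 0.14 by edgeR), at a mean of 0.331 against 4.74 CPM. It passed in DESeq2 (adjusted p = 0.00302), which called 8.14% of genes. It also passed in the edgeR fit of all 14 libraries (adjusted p = 0.0257), which called 10.1%. None of the 5 tested flanking genes passed in the edgeR fit of that comparison, where 0.0547% of all genes did.

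Genes around the enzymes were read from 5 lists, and each count with NETs stands beside the 54.1% of all genes that passed (3093 of 11753 rose and 3270 fell). With NETs, of 18 tested genes for proteins reported as citrullinated, 8 rose and 4 fell, with a median log2 fold change of 0.18 against 0.000676 over all genes. Hspa5, the endoplasmic reticulum chaperone BiP, rose by 1.29 ± 0.07 (SE, adjusted p = 6.35e-10 by edgeR) and Npm1, nucleophosmin, by 0.61 ± 0.08 (adjusted p = 6.56e-06). Of 13 NET release genes 4 were tested and all 4 rose, with a median of 1.21. Among them Hmgb1, a chromatin protein, rose by 0.53 ± 0.06 (adjusted p = 3.08e-06 by edgeR). Cybb, the phagocyte oxidase subunit, had 1.05 to 1.26 CPM with NETs and no count in the 3 control cultures. It passed the filter on low counts only through the NET cultures, so it could only rise. Of 11 transcription factors linked to Padi genes, 2 rose and 2 fell. Sp1, which binds GC boxes, rose by 0.58 ± 0.07 (adjusted p = 1.49e-06) and Hif1a, the hypoxia-inducible factor subunit, fell by 0.23 ± 0.06 (adjusted p = 0.00501 by edgeR).

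The enzymes that share arginine as a substrate were read in the same comparison. Of 8 protein arginine methyltransferases, 1 rose and 3 fell, with Prmt6 at 0.40 ± 0.10 (log2, SE, adjusted p = 0.00215 by edgeR) and Carm1 at -0.26 ± 0.07 (adjusted p = 0.00635). Of 5 tested genes for free arginine and citrulline, Nos2, which makes citrulline and nitric oxide from arginine, rose by 0.47 ± 0.10 (adjusted p = 9.45e-04) and Slc7a1, a cationic amino acid transporter, fell by 0.40 ± 0.10 (adjusted p = 0.00338). Over the 5 lists, 26 of 45 tested genes passed in edgeR, beside 54.1% of all genes.

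In tumour cells of WT hosts after laparotomy, none of the 62 tested genes of the 5 lists passed in edgeR, while 21 had an unadjusted p under 0.05 and 13 passed in DESeq2. Among all 14615 genes the same counts were 0.0547% in edgeR, 2753 genes at an unadjusted p under 0.05 and 8.14% in DESeq2. Hspa5 had -0.48 ± 0.12 (log2, SE, adjusted p = 0.135 by edgeR), Npm1 0.48 ± 0.12 (adjusted p = 0.136) and Prmt5, the main symmetric arginine methyltransferase, 0.35 ± 0.13 (adjusted p = 0.211). Between PAD4 KO and WT hosts with laparotomy, 0 of 62 passed in edgeR, 7 had an unadjusted p under 0.05 and 3 passed in DESeq2, beside 0.0205%, 1954 of 14615 and 3.73% of all genes.

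Other genes followed Padi4 more closely than any followed Padi2 over the 14 libraries, by Pearson correlation of log2(CPM + 0.5) among genes with a mean of at least 5 CPM. These values describe 14 libraries that fall into cultures and tumours and carry no test. For Padi4 the closest 5 of 10197 genes were Tead4 (0.977), Grik5 (0.976), Eps15l1 (0.971), Wwc1 (0.970) and Fam21 (0.967), and 398 genes were above 0.9. Tead4, a TEAD transcription factor, was at 32.0 to 40.2 CPM in the 6 cultures, 18.8 and 19.2 CPM in WT hosts with laparotomy and 6.07 to 8.91 CPM in the other 6 tumour libraries, so that it set the same 3 levels apart as Padi4. For Padi2 the closest were Ttc14 (0.884), Dus1l (0.882), Ddx17 (0.842), Rbm28 (0.830) and Fau (0.814), and none was above 0.9.

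Over the 8 tumour libraries alone, the closest of 10240 genes to Padi2 were Pnisr (0.985), Vrk1 (0.985), Ppcdc (0.982), Pank2 (0.969) and Ttc14 (0.960). For Padi4 they were Khnyn (0.973), Gigyf1 (0.968), Hk1 (0.968), Dusp11 (0.964) and Tk1 (0.963). Above 0.9 there were 43 genes for Padi2 and 90 for Padi4, and no gene was among the closest 5 of both. Padi2 and Padi4 themselves correlated at 0.923 over these 8 libraries. The 2 libraries from WT hosts with laparotomy were the highest of the 8 in both genes. Pnisr, a splicing-associated protein gene, was at 133 and 118 CPM in those 2 libraries, 105 CPM in WT control replicate 2 and 74.4 to 80.7 CPM in the other 5.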

How the data were processed

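The authors deposited read counts per gene for 14 libraries in 3 columns (unstranded, first strand, second strand). Trimmomatic, STAR and the build mm10 were used, per the submitters' processing notes; their versions, the annotation and the kit are not known from the sources at hand. The 4 summary lines that name no gene were left out of totals and tests. Levels are CPM of unstranded counts; 95% intervals are exact Poisson or, for shares, exact binomial.

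Counts were tested in R 4.3.3 with edgeR 4.0.16 and limma 3.58.1 (filterByExpr, TMM, robust glmQLFit, glmQLFTest, Benjamini-Hochberg adjustment over all genes, threshold 0.05). Cultures (11753 genes) and tumours (14615 genes) were fitted separately, with 4 residual degrees of freedom each; tumour against culture used all 14 libraries (14421 genes, 8 degrees of freedom). Alternatives were RLE factors, library totals, no filter, DESeq2 1.42.0, the second-strand column, a replicate block, other library sets and leaving out each library. On simulated counts the NET fit (11649 genes) recovered 97% of genes changed by 1 (log2), and the laparotomy fit in WT hosts (14306 genes) recovered 10.4% at 1, 86.6% at 2 and 100% at 3. The WT laparotomy tumour against culture fit (13787 genes) recovered 65.7% at 1. The simulation gave every gene of a fit the same spread and planted changes only in genes above a minimum mean count. Genes that scatter more are recovered less often, so these percentages do not give the chance of finding a change in a Padi gene.

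The members and lists were chosen with earlier results of these data known. Named are the members, Padi6, flanking genes, the 2 genes of a list with the smallest p and the 5 genes most like Padi2 and Padi4; not all are printed, and 1 listed gene is not reported here. Of the listed genes Flg and Prmt9 were not matched. Promoters are from RefSeq (GRCm38.p6, 4 of 4 members matched) and positions from GENCODE. Protein sequences were not used here.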

Additional observations from a re-analysis of the deposited data

How the results depend on the processing

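Each comparison was recomputed under other normalizations, filters, tools and library sets. Over these, Padi2 kept direction and side of the threshold in 110 of 120 values, Padi3 in 90 of 107 and Padi4 in 106 of 120. With NETs, the number of members that passed was 1, and 2 with library totals and 2 with no filter. For laparotomy in WT hosts it was 0, and 1 with no filter, 2 in DESeq2 and 2 with all 14 libraries in 1 fit. For the interaction it was 0, and 1, 2 and 2 in the same order. For PAD4 KO against WT hosts with laparotomy it was 0, and 1, 3 and 3, and 3 with the compared groups alone. Against control culture it was 1 in PAD4 KO hosts with laparotomy, and 2 in the second-strand column; 2 in WT controls, and 3 there and with no filter; and 2 in PAD4 KO controls, and 3 with no filter. The cause of these moves was not tested.

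Leaving out each library in turn, the number of members that passed ran from 0 to 1 for the interaction and for PAD4 KO against WT controls, and from 1 to 3 for WT and for PAD4 KO controls against control culture. The direction of some log2 fold changes turned. With NETs, Padi4 ran from -0.0689 to 0.0135 and Rcc2 from -0.0225 to 0.0691 (and -0.14 with library totals). For laparotomy in WT hosts, Arhgef10l ran from -1.67 to 0.35. For laparotomy in PAD4 KO hosts, Padi4 ran from -0.69 to 0.71 and Rcc2 from -0.37 to 0.24. For PAD4 KO against WT controls, Padi2 ran from -2.03 to 0.56 and Padi4 from -1.40 to 0.24. Against control culture, Padi2 ran from -0.22 to 2.35 and Padi3 from -0.93 to 0.49 in WT controls, and Padi2 from -0.34 to 0.18 in PAD4 KO hosts with laparotomy. Where 1 library remained in a group, it was assumed to vary like the other groups.

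Replicate numbers share no stated animal or batch, and the deviations of same-numbered cultures correlated at 0.147, 0.113 and -0.094. Those of tumour groups correlated at 0.4 and -0.141 (WT controls with PAD4 KO controls and with PAD4 KO hosts with laparotomy), 0.122 and -0.149 (WT hosts with laparotomy, in the same order), -0.00223 (the WT groups) and -0.161 (the PAD4 KO groups). With no common sign, the numbers were not taken to pair the libraries. With a replicate block, Padi2 with NETs stood at 2.63 (adjusted p = 2.16e-12 by edgeR). The block left 1 member past the threshold in PAD4 KO controls against control culture, where Padi3 stood at 1.40 (adjusted p = 0.0687), and moved Padi3 in WT controls against control culture to -0.00374. No other call on a member changed with the block. The share of Padi2 differed by 10.9 percentage points in pairs too, with an exact p of 0.25. Depth limits Padi1 and Padi3 most, with 0 to 13 and 3 to 181 counts per library.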
